A study of Mus musculus with 9 samples.

Results

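Cytotoxic lymphocytes kill through granules and through ligands of death receptors. Perforin, stored in the granules, opens the membrane of the target cell, and the granzymes, serine proteases of the same granules, enter and cut proteins there. Activated and memory CD8 T cells and NK cells also release interferon gamma and a set of chemokines, while most thymocytes that mature towards the CD8 lineage carry few of these proteins until they meet antigen. The 9 genes described here are 3 granule proteins (the granzymes Gzma and Gzmb and perforin, Prf1), the death receptor ligand Fasl, the cytokine Ifng and 4 chemokines (Ccl3, Ccl4, Ccl5 and Xcl1). They are 9 of 20258 genes with a symbol on the array. They were chosen by name, with earlier results of these data known. Each was represented by 1 probe, found through the RefSeq accession that the scanner files give for it (Ifng by 2 spots of its probe).

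Their transcripts were measured in sorted thymocytes of C57BL/6 mice on 9 one-colour Agilent arrays, with 1 array per group. Brd1 is a bromodomain protein that works within histone acetyltransferase complexes. The conditional knockout (CKO) mice carried Brd1flox/flox and Tie2-Cre. The control mice carried Brd1+/+ and Tie2-Cre, so that every group had the Cre, which is active in endothelial and blood-forming cells and therefore not in T cells alone. DP cells (positive for both CD4 and CD8) and the single positive CD4SP and CD8SP cells came from CKO and control mice at 8 weeks. CD8SP cells came also from CKO and control mice at 14 weeks that carried OT-I in addition (written OT-l in the labels), a transgene for a T cell receptor that reads peptide on MHC class I. CD4SP cells without surface TCRβ came from CKO mice alone, at 8 weeks. The labels do not say how many mice gave each sample.

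Levels are log2 signals relative to the 75th percentile of the array, and differences are on the log2 scale, with the control array subtracted from the CKO array except where another order is stated. Levels of one probe are compared between arrays, and probes are not set against each other. The share of the 55537 probes well above background was 39.01% to 45.9% per array, by the mark of the scanner software, and no spot was saturated. The number of arrays limits the precision. The 9 arrays lay on 2 slides. The CD8SP CKO array and both OT-I arrays shared slide 2, and the other 6 arrays shared slide 1, so the CD8SP pair compares arrays of different slides. The Brd1 probe read -0.33 in DP CKO cells against -0.79 in DP control cells and was higher on the CKO array of each of the 4 pairs. Whether it lies inside or outside the floxed segment was not known, so this probe is no check of the deletion.

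The promoters of 7 of the 9 genes were at hand in RefSeq sequence of GRCm38.p6, as windows of 300 bases from 250 before to 50 after the start of the gene. Those of both granzymes are shown because Gzma and Gzmb parted between the genotype pairs, that of Prf1 as the granule gene that followed the CD8 stage, and that of Ccl3 as the gene found well above background on CKO arrays alone. Capitals mark matches to AP-1 (TGANTCA), Runx (TGTGGT), ATF/CRE (TGACGT), Ets (AGGAAGT) and NF-kB motifs (GGGA, any 4 bases, then CC) on either strand, and no 2 matches overlap in these windows.
Gzma (chr13:113100932-113101231, minus strand): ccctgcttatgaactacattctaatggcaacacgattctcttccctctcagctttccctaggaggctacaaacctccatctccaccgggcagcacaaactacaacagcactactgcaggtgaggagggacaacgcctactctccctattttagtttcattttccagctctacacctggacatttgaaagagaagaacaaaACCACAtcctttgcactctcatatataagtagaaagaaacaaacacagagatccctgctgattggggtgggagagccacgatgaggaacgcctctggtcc
Gzmb (chr14:56262285-56262584, minus strand): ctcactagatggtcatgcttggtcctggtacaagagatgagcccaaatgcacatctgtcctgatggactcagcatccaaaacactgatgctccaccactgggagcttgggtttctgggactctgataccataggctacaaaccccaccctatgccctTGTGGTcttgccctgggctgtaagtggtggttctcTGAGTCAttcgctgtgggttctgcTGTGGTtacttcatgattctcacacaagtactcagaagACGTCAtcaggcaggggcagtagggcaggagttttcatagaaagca
Prf1 (chr10:61297586-61297885, plus strand): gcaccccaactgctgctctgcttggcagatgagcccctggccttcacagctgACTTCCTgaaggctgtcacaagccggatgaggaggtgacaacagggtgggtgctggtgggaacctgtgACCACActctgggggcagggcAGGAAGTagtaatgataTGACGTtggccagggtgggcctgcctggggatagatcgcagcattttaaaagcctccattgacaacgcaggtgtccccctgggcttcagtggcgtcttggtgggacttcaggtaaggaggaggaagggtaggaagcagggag
Ccl3 (chr11:83649329-83649628, minus strand): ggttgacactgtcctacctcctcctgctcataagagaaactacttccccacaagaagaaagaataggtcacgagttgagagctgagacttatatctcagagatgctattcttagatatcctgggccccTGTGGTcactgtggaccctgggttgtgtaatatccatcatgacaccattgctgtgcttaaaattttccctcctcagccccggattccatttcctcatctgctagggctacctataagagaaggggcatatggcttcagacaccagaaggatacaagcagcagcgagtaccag
The Gzmb window held 2 Runx matches, 1 AP-1 match and 1 ATF/CRE match, and the Gzma window held 1 Runx match. The Prf1 window held 2 Ets matches, 1 Runx match and 1 ATF/CRE match, and the Ccl3 window held 1 Runx match. The Runx motif was in 5 of the 7 windows, against 16.7% of 32544 RefSeq windows of this length. The other shares over those windows were 7.79% for AP-1, 7.55% for ATF/CRE, 9.27% for Ets and 20.8% for NF-kB, which was in 0 of the 7. A match describes the letters and is no evidence that a factor binds.

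Gzma, a tryptase-like granzyme, passed the background mark on all 9 arrays, and its level ran from 2.78 to 9.62. It was 7.71 in DP CKO and 5.47 in DP control cells, and 5.34 in CD4SP CKO and 2.78 in CD4SP control cells. It was 7.57 in CD8SP CKO and 7.82 in CD8SP control cells, 6.32 in OT-I CKO and 9.62 in OT-I control cells, and 8.24 in TCRβ-negative CKO cells. The transcript was thus higher in CKO than in control cells in the DP and CD4SP pairs, nearly level in the CD8SP pair and lower in the OT-I pair. The OT-I control array was the highest and the CD4SP control array the lowest, so that the 4 CKO arrays (mean 6.74, SD 1.12) lay inside the span of the 4 control arrays (mean 6.42, SD 2.96).

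Gzmb, which cuts caspases in target cells, was well above background on 6 arrays. It was not so in either DP array (-3.73 in CKO, -5.26 in control) or in TCRβ-negative CKO cells (-5.46). Its level was -0.65 in CD4SP CKO and 1.56 in CD4SP control cells, 2.38 in CD8SP CKO and -0.87 in CD8SP control cells, and 0.47 in OT-I CKO and -0.01 in OT-I control cells. Gzmb was therefore highest in CD8SP CKO cells, and in the CD4SP pair it went against Gzma. Prf1 varied least of the 9 genes, over 2.31 log2 units, and passed the background mark on all 9. Its level was 1.58 in DP CKO and 1.11 in DP control cells, 2.06 in CD4SP CKO and 2.13 in CD4SP control cells, 3.42 in CD8SP CKO and 2.81 in CD8SP control cells, 3.29 in OT-I CKO and 2.47 in OT-I control cells, and 1.16 in TCRβ-negative CKO cells. All 4 CD8SP arrays had more Prf1 signal than any other array.

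Fasl, the ligand of the death receptor Fas, and Ifng, the macrophage-activating cytokine of cytotoxic and helper cells, were each well above background on 6 arrays. The Fasl level was -2.99 in DP CKO and -3.89 (not well above background) in DP control cells, 0.03 in CD4SP CKO and 0.44 in CD4SP control cells, and 0.85 in CD8SP CKO and -2.28 in CD8SP control cells. In the OT-I pair it was -0.86 in CKO and -3.62 in control cells, the control below the mark, and TCRβ-negative CKO cells were below it too (-5.15). Ifng read -1.90 in DP CKO and -5.01 (not well above background) in DP control cells, 0.56 in CD4SP CKO and 1.11 in CD4SP control cells, and 2.72 in CD8SP CKO and -0.82 in CD8SP control cells. It read 0.06 in OT-I CKO and -2.92 in OT-I control cells and -5.54 in TCRβ-negative CKO cells, the last 2 not well above background. Both genes were well above background in all 4 CKO arrays of the pairs, against 2 of 4 control arrays, and both were lower in CKO cells only in the CD4SP pair.

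The 3 CC chemokines Ccl3, Ccl4 and Ccl5 attract T cells and other leukocytes. Ccl3 was well above background on 3 arrays, all CKO: CD8SP (1.44), OT-I (0.19) and CD4SP (-0.92). Its level was -3.50, -3.39 and -3.34 in the CD8SP, OT-I and CD4SP control cells, and -5.32 in DP CKO, -5.54 in DP control and -5.54 in TCRβ-negative CKO cells. No control array had Ccl3 well above background. Ccl4 was well above background on all 9 arrays, at 1.89 in DP CKO and -0.92 in DP control cells, 1.64 in CD4SP CKO and 1.23 in CD4SP control cells, 3.88 in CD8SP CKO and 1.65 in CD8SP control cells, 3.06 in OT-I CKO and 0.57 in OT-I control cells, and 1.02 in TCRβ-negative CKO cells. Ccl5, also on all 9, was 2.48 in DP CKO and 0.41 in DP control cells, 4.98 in CD4SP CKO and 3.88 in CD4SP control cells, 8.25 in CD8SP CKO and 5.37 in CD8SP control cells, 6.82 in OT-I CKO and 4.90 in OT-I control cells, and -0.53 in TCRβ-negative CKO cells. For all 3 genes the CD8SP CKO array was the highest of the 9 and the OT-I CKO array the second.

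Xcl1, the chemokine that draws cross-presenting dendritic cells through Xcr1, did not share this order. It was -1.42 in DP CKO and -4.98 (not well above background) in DP control cells, 1.1 in CD4SP CKO and 1.18 in CD4SP control cells, 2.58 in CD8SP CKO and 3.29 in CD8SP control cells, -2.38 in OT-I CKO and -1.74 in OT-I control cells, and -2.06 in TCRβ-negative CKO cells. The highest array was the CD8SP control, and the OT-I cells of both genotypes had less Xcl1 signal than the CD8SP cells without OT-I. Some neighbours in these orders lay within the scanner's own error for 2 spots, the only error there is within a group: 3 of 8 neighbouring pairs for Gzma (among them CD8SP control, DP CKO and CD8SP CKO), 3 of 8 for Prf1, 2 of 7 for Xcl1, 1 of 5 for Gzmb, 1 of 8 each for Ccl4 and Ccl5, and 0 for Ifng, Fasl and Ccl3.

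**Figure D1:**
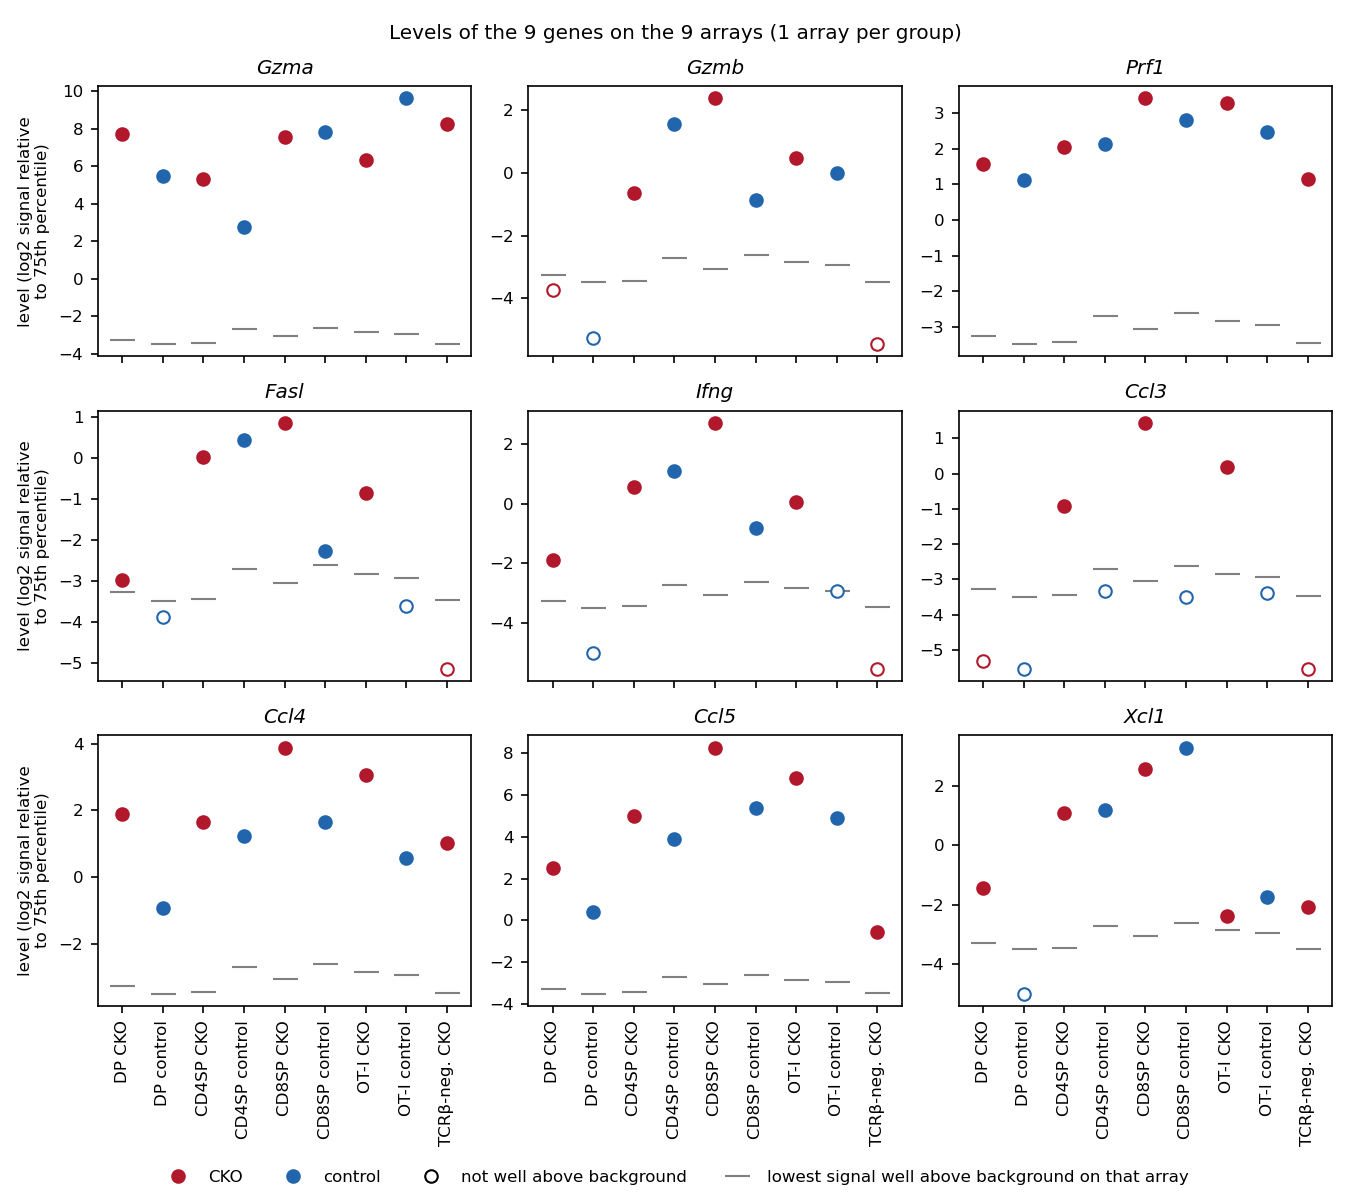
Level of each of the 9 genes (y axis, log2 signal relative to the 75th percentile of the array) on the 9 arrays (x axis, 1 point per array; red CKO, blue control; open circles not well above background; grey dashes the lowest signal well above background on that array). Ccl3 is filled on 3 CKO arrays alone, and Gzma is highest in OT-I control cells (9.62).

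The first comparison asked how these genes differ with Brd1 genotype over the 4 populations measured in both genotypes. The 3 CC chemokines, Ifng and Fasl had estimates of 1.60 to 2.79, all higher in CKO cells, and the granzymes had smaller ones with wide errors. None of the 9 passed the test (limma, population and genotype as additive terms, 3 residual degrees of freedom), against 0.281% of the 20282 genes tested. All 9 estimates were above 0, where the median over all genes tested was -0.04. Ccl5 had an estimate of 1.99 (SE 0.31, adjusted p = 0.118) and Ccl4 one of 1.98 (SE 0.42, adjusted p = 0.208), both from arrays all well above background. Those of Ccl3 (2.79, SE 0.73, adjusted p = 0.287), Ifng (2.27, SE 0.70, adjusted p = 0.352) and Fasl (1.60, SE 0.61, adjusted p = 0.431) rest on control arrays of which 0, 2 and 2 of 4 were well above background, so their sizes depend on how dim signals are treated. With normexp background correction, which pulls dim signals together, they were 1.03 for Ccl3, 1.04 for Ifng and 0.62 for Fasl, against 1.99 for Ccl5 and 1.68 for Ccl4. Those 5 genes had an unadjusted limma p under 0.05, as did 5.88% of all genes in the same direction. The granule genes and Xcl1 had smaller estimates relative to their errors: 0.77 for Gzmb (SE 0.83), 0.53 for Xcl1 (SE 0.75), 0.46 for Prf1 (SE 0.22) and 0.31 for Gzma (SE 0.98), with adjusted p of 0.508 to 0.912. Ccl5 passed the test under a variance prior that follows signal intensity (adjusted p = 0.0447), and its adjusted p ran from 0.0447 to 0.304 over the alternatives. With the arrays of slide 1 alone, which leave 1 residual degree of freedom and no CKO CD8SP or OT-I array, Gzma passed (2.4, adjusted p = 0.0396), where 132 genes of all tested were called, against 57 with all arrays.

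Ccl4 and Ccl5 were higher in CKO than in control cells in 4 of 4 pairs, as were 9.46% of the tested genes, counting a pair only where at least 1 of its arrays was well above background. Ccl3 was higher in 3 of the 3 pairs that could be compared. In all 3 only the CKO array was well above background, so the filter largely set this direction. Ccl3 entered the fit through CKO arrays alone as well. Ccl5 was the gene of the 9 that passed 2-fold in 4 of 4 pairs (2.07, 1.1, 2.87 and 1.92 in the DP, CD4SP, CD8SP and OT-I pairs). Ifng, Ccl3 and Ccl4 passed 2-fold in 3 pairs, and 1.69% of tested genes passed it upwards in 3 or more. Gzma was higher in 2 of 4 pairs, Gzmb in 2 of 3, Xcl1 in 1 of 4, and Prf1, Fasl and Ifng in 3 of 4. In sorted bulk samples, fewer cells with a transcript and less RNA per cell cannot be told apart.

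Within a pair there is 1 array on each side and no test, and where one side was not well above background the fold is a bound, taken against the dimmest probe of that array that was. In the DP pair 7 genes could be compared, all 7 were higher in CKO cells, and 5 passed 2-fold, against 4.86% of all genes compared, and 0 were past it downwards, against 7.58%. Ifng, Fasl and Xcl1 entered this pair only through the CKO array, which largely set their direction. Of the 4 genes well above background on both arrays, 3 passed 2-fold upwards. Ccl4 stood 2.81 and Gzma 2.24 higher in DP CKO cells, while Xcl1 was at least 4.2-fold and Ifng at least 3.01-fold higher. In the CD4SP pair 3 genes passed 2-fold upwards (background 6.65%) and 1 downwards (background 5.53%). Gzma (2.56), Ccl3 (at least 3.46-fold) and Ccl5 (1.1) were higher in CD4SP CKO cells, and Gzmb was lower (-2.21). The genes' median difference was 2.24 in the DP pair, against 0.15 over all genes compared, and -0.07 in the CD4SP pair, against -0.01.

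In the CD8SP pair 6 of the 9 passed 2-fold upwards, against 9.32% of all genes, and 0 passed it downwards, against 10.1%. Ccl3 was at least 16.7-fold higher in CD8SP CKO cells. Ifng (3.54), Gzmb (3.26), Fasl (3.12), Ccl5 (2.87) and Ccl4 (2.23) followed. Prf1 (0.61), Gzma (-0.25) and Xcl1 (-0.71) stayed within 2-fold. In the OT-I pair 5 passed upwards (background 10.1%) and 1 downwards (background 15.6%). Ccl3, Ifng and Fasl entered this pair only through the CKO array, which largely set their direction. Of the 6 genes well above background on both arrays, 2 passed upwards and 1 downwards. Ccl3 was at least 8.77-fold, Ifng at least 7.89-fold and Fasl at least 4.25-fold higher in OT-I CKO cells, Ccl4 (2.49) and Ccl5 (1.92) were higher as well, and Gzma was lower (-3.31). The median difference of the 9 genes was 2.87 in the CD8SP pair, against -0.12 over all genes, and 1.92 in the OT-I pair, against -0.09. With normexp the CD8SP differences were 2.73 for Ifng, 2.23 for Gzmb, 2.18 for Ccl3 and 1.73 for Fasl, the OT-I differences 1.25 for Ccl3, 1.18 for Ifng and 0.80 for Fasl, the CD4SP differences -1.52 for Gzmb and 0.67 for Ccl3, and the DP differences 1.98 for Ccl4, 0.79 for Xcl1, 0.58 for Ifng and 0.17 for Fasl.

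**Figure D2:**
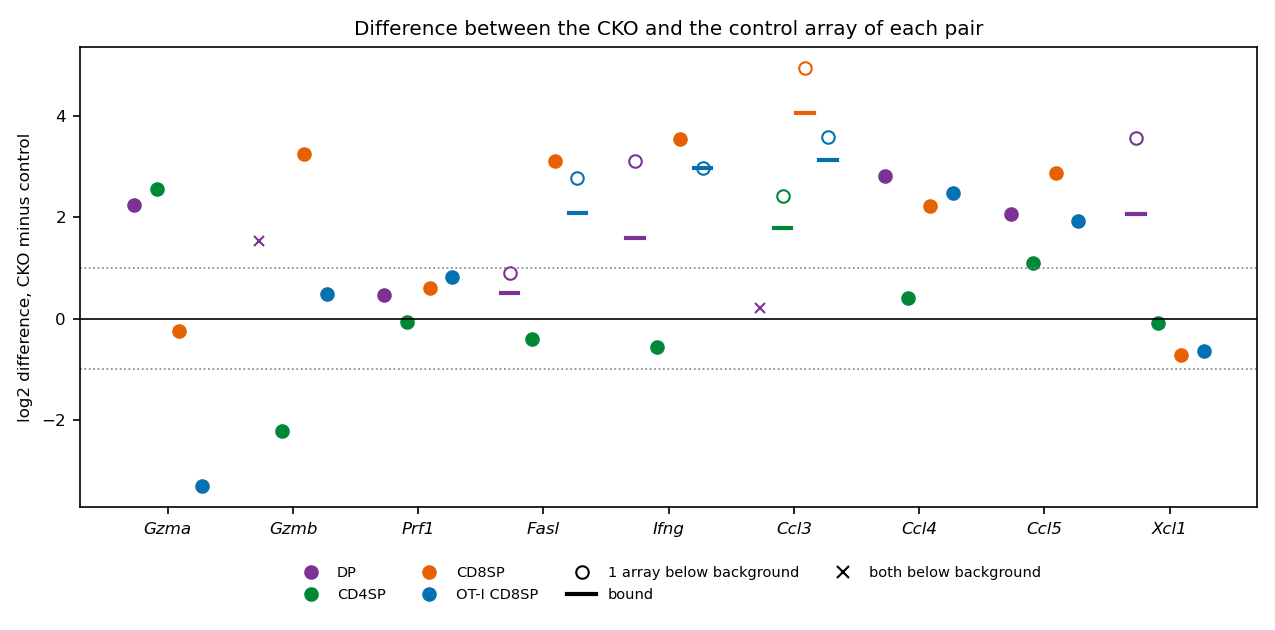
Difference between the CKO and the control array (y axis, log2, CKO minus control) for each of the 9 genes (x axis) in the DP, CD4SP, CD8SP and OT-I pairs (colours). Open circles have 1 array not well above background and a bar at their bound, crosses have both, and dotted lines mark 2-fold; Ccl4 and Ccl5 lie above 0 in every pair, and Gzma lies above 0 in the DP and CD4SP pairs and below it in both others.

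The granzymes parted between the pairs. Gzma differed by 2.24 and 2.56 in the DP and CD4SP pairs and by -0.25 and -3.31 in the CD8SP and OT-I pairs, whereas Gzmb differed by -2.21, 3.26 and 0.48 in the CD4SP, CD8SP and OT-I pairs. A second limma model asked whether the genotype difference in the CD8SP and OT-I pairs departs from that in the DP and CD4SP pairs. For Gzma the departure was -4.17 (SE 1.04, adjusted p = 0.315), and for Gzmb 2.21 (SE 1.53, adjusted p = 0.506). Single pairs moved both: without the OT-I pair the departure of Gzma was -2.65, and that of Gzmb was 0.34 without the CD4SP pair and 4.08 without the DP pair. Fasl (2.70, SE 0.54, and 1.29 with normexp) and Ccl3 (2.94, SE 0.89, and 1.38 with normexp) also had unadjusted limma p under 0.05, as Gzma had, 3 of 9 genes against 15.1% of all. Of the 20282 genes 0 were called in this model with 2 residual degrees of freedom, so that no departure passed the test.

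Other transcripts differed between the same arrays, and their part in the granzyme differences was not tested. The summed signal of 16 proliferation genes, all 16 well above background on every array, was 512, 153, 438 and 166 times the 75th percentile in DP, CD4SP, CD8SP and OT-I CKO cells, against 573, 145, 1060 and 1170 in the same populations of control mice. Ptcra, the pre-T cell receptor chain of immature thymocytes, read -1.85 in OT-I CKO and 3.26 in OT-I control cells, and 2.11 in CD8SP CKO and 4.36 in CD8SP control cells. It was -0.74 in CD4SP CKO and 0.33 in CD4SP control cells, and 3.94 in DP CKO and 3.84 in DP control cells. Cd163l1, a gamma delta T cell gene, was 3.01 in OT-I CKO and 5.06 in OT-I control cells, -0.62 in CD8SP CKO and -2.08 in CD8SP control cells, -3.72 in CD4SP CKO and -2.24 in CD4SP control cells, and -2.69 in DP CKO and -5.36 in DP control cells. The sum over 6 gamma delta markers ranged from 4.32 to 36.1 in the CKO arrays of the pairs and from 3.32 to 45.1 in the control arrays.

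The list of NK and NKT cell markers also varied over the arrays. The sum of its 11 genes was 3.42, 6.57, 60.4 and 11.3 in DP, CD4SP, CD8SP and OT-I CKO cells, against 3.02, 29.9, 27.3 and 7.76 in control cells, and 3 to 7 of the 11 were well above background per array. The NK receptor genes Klrb1c (-3.96 in CD4SP CKO and 1.41 in CD4SP control cells) and Klra8 (-5.26 and 1.54 in the same cells) were well above background on the CD4SP control array alone. Klrd1 (-5.53 and 0.65), Klre1 (-5.49 and -1.29), Tyrobp (1.61 and 3.97) and Fcer1g (1.38 and 2.51) also read lower in CD4SP CKO than in CD4SP control cells. For Klrd1 and Klre1 the CKO array was not well above background. Eomes, also on the list, went the other way (-1.16 in CD4SP CKO and -2.98, not well above background, in CD4SP control cells). In the CD8SP CKO cells, where Gzmb was highest, neither Klrb1c (-2.89) nor Klra8 (-4.94) was well above background, and Ncr1 and Klrk1 were so on no array. Of the others, Tyrobp, a signalling adaptor that is also in the myeloid list and makes up most of the sum in CD8SP cells, read 5.54 in CD8SP CKO and 4.13 in CD8SP control cells, and Fcer1g 2.83 in CD8SP CKO and 1.94 in CD8SP control cells. The receptor gene Klrd1 read 2.16 in CD8SP CKO and 2.19 in CD8SP control cells. Klre1 read -1.94 in CD8SP CKO and -4.69 (not well above background) in CD8SP control cells, a difference of at least 0.68. Zbtb16, also on the list and well above background on all 9 arrays, was lower in CKO cells (-2.37 in CD8SP CKO, -1.24 in CD8SP control). Its difference was -1.23 in the CD4SP pair, -0.26 in the OT-I pair and 0.22 in the DP pair. The summed signal of myeloid and dendritic cell markers was also high on the CD8SP arrays, though fewer of these genes were detected there. Their sum over 13 genes was 680 in CD8SP CKO and 442 in CD8SP control cells, most of it from H2-Ab1 (8.76 and 8.07). Of the 13, 7 and 8 were well above background there, against 13 and 12 in CD4SP CKO and control cells and 11 on each DP array. C1qa of this list read -4.37 in CD8SP CKO and -4.81 in CD8SP control cells, against 0.31 in CD4SP CKO and 0.35 in CD4SP control cells.

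**Figure D3:**
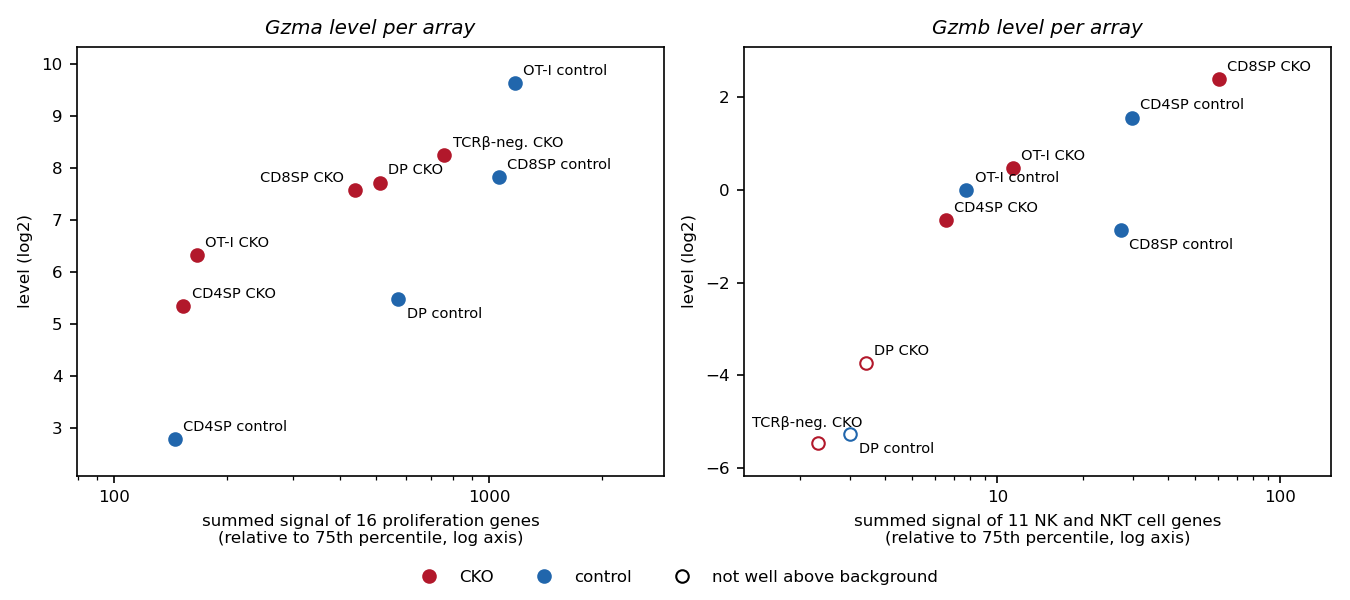
Left, Gzma level (y axis, log2) against the summed signal of 16 proliferation genes (x axis, log scale, multiples of the 75th percentile); right, Gzmb level against the summed signal of 11 NK and NKT cell markers. Each point is 1 of the 9 arrays (red CKO, blue control, open not well above background); the OT-I control array is at the top right on the left side (1170 and 9.62), and the CD8SP CKO array at the top right on the right side (60.4 and 2.38).

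The second comparison asked how the genes change between thymocyte stages, each stage being the mean of its CKO and control arrays. From DP to CD8SP, 3 of the 9 genes rose (limma), against 2.42% of all genes tested in that direction, and 0 fell, against 1.04%. Ccl5 rose by 5.37 (SE 0.44, adjusted p = 0.00803), with a mean level of 6.81 in CD8SP and 1.45 in DP cells. Xcl1 rose by 6.14 (SE 1.06, adjusted p = 0.0421; 2.94 and -3.20), its DP control array not well above background, and by 3.50 with normexp. Prf1 rose by 1.77 (SE 0.31, adjusted p = 0.0442; 3.12 and 1.35). Gzmb (5.25), Ifng (4.41), Ccl3 (4.40), Fasl (2.72) and Ccl4 (2.28) had estimates with adjusted p of 0.0783 to 0.148. Both DP arrays of Gzmb and Ccl3, and the DP control array of Ifng and Fasl, were below the background mark, and with normexp the estimates were 2.04 for Gzmb, 2.12 for Ifng, 1.48 for Ccl3 and 1.13 for Fasl, against 5.04 for Ccl5. In all, 8 of the 9 had an unadjusted p under 0.05 (12.5% of all genes upwards). Gzma, the ninth, had an estimate of 1.1 (SE 1.39, adjusted p = 0.707). Both the Prf1 and the Xcl1 call were lost with another percentile for scaling, with quantile normalization and without the CD4SP pair, that of Prf1 also on slide 1 alone or without the detection filter, and under a slide block none of the 3 passed (Ccl5 4.78, adjusted p = 0.0717).

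From DP to CD4SP, Ccl5 rose by 2.99 (SE 0.44, adjusted p = 0.0291), the single call among the 9, against 2.18% of all genes upwards. Gzmb (4.95), Xcl1 (4.34), Ifng (4.29), Fasl (3.67) and Ccl3 (3.30) had estimates with SE of 0.87 to 1.18 and adjusted p of 0.0907 to 0.181, against the same dim DP arrays, to which that of Xcl1 in control cells adds. With normexp these were 1.71 for Gzmb, 2.03 for Xcl1, 1.83 for Ifng, 1.5 for Fasl and 0.70 for Ccl3, against 2.69 for Ccl5. With Ccl5, 6 genes had an unadjusted p under 0.05 (10.1% of all genes upwards). Gzma was the gene with a negative estimate (-2.53, SE 1.39, adjusted p = 0.429). Between CD8SP and CD4SP cells none of the 9 was called by limma, against 0.390% of all genes, and 3 had an unadjusted p under 0.05, all higher in CD8SP cells (7.04% of all genes): Gzma (3.63), Ccl5 (2.38) and Prf1 (1.02).

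**Figure D4:**
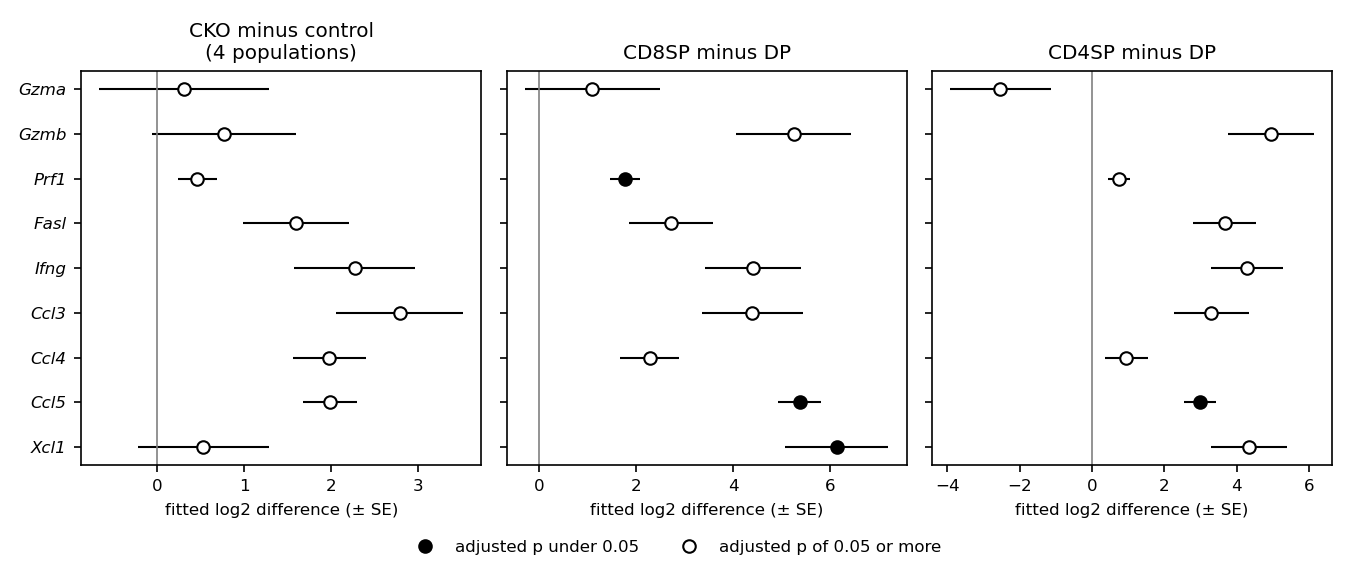
Fitted log2 differences (x axis, with SE bars) of the 9 genes (y axis) for CKO minus control over 4 populations, CD8SP minus DP and CD4SP minus DP (limma; filled points have an adjusted p under 0.05). All 9 genotype estimates are above 0 and unfilled; Ccl5, Prf1 and Xcl1 are filled for CD8SP minus DP and Ccl5 for CD4SP minus DP.

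OT-I CD8SP cells were set against CD8SP cells without the transgene, with both genotypes in each. None of the 9 genes was called by limma, against 0.237% of all genes. Xcl1 had an unadjusted p under 0.05 (-4.99, SE 1.06, adjusted p = 0.267), as did 3.59% of all genes downwards, and it was lower in OT-I cells in both genotypes. Without the DP pair it passed (adjusted p = 0.0323). Ifng was -2.38 (SE 0.99, adjusted p = 0.725), and Gzma 0.28 (SE 1.39, adjusted p = 1). The OT-I mice were 14 weeks old and the others 8 weeks, so the transgene and age cannot be told apart.

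CD4SP cells without surface TCRβ were set against the CD4SP cells of the same CKO genotype. On the single array of each, 6 of the 9 genes were past 2-fold lower in TCRβ-negative cells, against 11.1% of all genes, and 1 was past 2-fold higher, against 11.3%. Of the 6, Ifng, Fasl, Gzmb and Ccl3 entered only through the CD4SP CKO array, which largely set their direction. Of the 5 genes well above background on both arrays, 2 were past 2-fold lower and 1 higher. Ccl5 was lower by 5.51 (-0.53 in TCRβ-negative and 4.98 in CD4SP CKO cells) and Xcl1 by 3.16. Ifng was at least 16.3-fold, Fasl at least 11.3-fold, Gzmb at least 7.09-fold and Ccl3 at least 5.88-fold lower. Prf1 (-0.90) and Ccl4 (-0.62) were within 2-fold. Gzma was the exception, 2.90 higher in the TCRβ-negative cells. With normexp the differences were -4.78 for Ccl5, -2.15 for Ifng, -2.07 for Xcl1, -1.73 for Fasl, -1.19 for Ccl3 and -1.17 for Gzmb. Rag1, a recombinase gene of DP thymocytes, read 8.07 in TCRβ-negative CKO, 2.88 in CD4SP CKO and 8.09 in DP CKO cells, and its part in this difference was not tested.

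Over the 9 arrays, 8 of the genes ran alike and Gzma apart. The Pearson correlations of those 8 genes with each other lay between 0.48 and 0.97, and those of Gzma with the 8 between -0.55 and 0.12. Xcl1 was the least alike of the 8, with correlations from 0.48 (Ccl3) to 0.74 (Ifng). These are descriptions over 9 arrays that share 2 slides, with populations repeated between genotypes. They include readings below the background mark, which Ccl3 passed on 3 arrays and Gzmb, Ifng and Fasl on 6. Dim readings shared between genes therefore add to the likeness. Among 3483 named genes that varied at least 4-fold, Gzma was most like Cenpv (r = 0.968), Acadl (0.950) and Tmed1 (0.943). Gzmb was most like Metrnl (0.972), Cd82 (0.969) and Hcst (0.968), and Prf1 most like Fcgrt (0.981), Ninj2 (0.977) and Haao (0.976). Ifng and Fasl shared S100a4 (0.971 and 0.970) and Relb (0.965 and 0.960) among their 3 nearest. Ccl3 was most like Izumo4 (0.955), Ccl4 like the signalling adaptor Traf1 (0.961), Ccl5 like Plek (0.970) and the T-box factor Eomes (0.967), and Xcl1 like Calhm6 (0.919).

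Other genes of the cytotoxic programme were read from lists, as counts beside the same over all genes tested, of which 9192 of 20282 had a genotype estimate above 0, with a median of -0.04. Of 12 tested genes among the other granzymes and granule proteins, 10 had an estimate above 0, and the median genotype estimate was 0.62. None was called. Gzmc (1.75, SE 0.45, adjusted p = 0.284) was well above background on 4 arrays and on neither OT-I array, and was at least 2.46 higher in CKO cells in the CD8SP pair. The granule protease inhibitor Cst7 (0.80, SE 0.38, adjusted p = 0.502) and Serpinb6b (0.92, SE 0.32, adjusted p = 0.388) were past 2-fold higher in CKO cells in 3 of 4 pairs. Of all tested genes, 1.69% were so in 3 or more pairs. The proteins that move and release granules had a median of 0.16 (9 tested, 8 above 0). Of 10 death receptor genes 9 were above 0, and the median was 0.25, with the lymphotoxin gene Lta past 2-fold higher in 3 pairs (0.96, SE 0.24, adjusted p = 0.270). Fas, the receptor of Fasl, was past 2-fold lower in CKO cells in 4 of 4 pairs (-1.62, SE 0.23, adjusted p = 0.0877). Taken pair by pair, 7.58%, 5.53%, 10.1% and 15.6% of all genes compared were past 2-fold lower in the DP, CD4SP, CD8SP and OT-I pairs. The share lower in all 4 pairs at once, which would match the count for Fas, is not given here.

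Among 9 tested T cell chemokines outside the 9 genes 4 were above 0, and the median was -0.02. Cxcl10, which is induced by interferon gamma, had an estimate of 1.91 (SE 0.33, adjusted p = 0.136) and was past 2-fold higher in the CD4SP, CD8SP and OT-I pairs (1.12, 2.41 and 1.39). In the DP pair its control array was not well above background, and the bound was a difference of at least 0.86. Cxcl9, induced likewise (1.16, SE 0.22, adjusted p = 0.168), was past 2-fold higher in the CD8SP pair (1.12) and by at least 1.62 in the OT-I pair. In the CD4SP pair its probe read -3.17 in CKO and -4.38 in control cells, the control below the lowest level well above background of that array (-2.71). Ccl9 went the other way, with an estimate of -1 (limma, SE 0.44, adjusted p = 0.483), and was well above background on 3 arrays. Its difference was -1.47 in the CD4SP pair, and its bound was -0.25 in the DP pair. The receptor and inducers of interferon gamma had a median of 0.48 (11 tested, 8 above 0), the cytotoxic transcription factors one of 0.50 (10 tested, 8 above 0), and the genes of memory-like CD8 cells one of 1.00 (8 tested, Fasl and Ccl5 among them). Eomes was past 2-fold higher in the 3 pairs that could be compared (1.43, SE 0.36, adjusted p = 0.271). In none of these lists was a gene called by limma.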

How the data were processed

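Per the file headers, the authors' scanner files give each spot's processed signal as an intensity after background subtraction and spatial detrending (Agilent Feature Extraction 10.7.1.1, design 028005), unscaled between arrays, beside median spot and background intensities. The deposited series table holds these intensities divided by the 75th percentile of the array. The labels name a biotinylated cRNA protocol, whereas the files are Cy3 arrays. Spots were averaged per probe, and 144 probes marked as outliers were left out. Log2 signals were taken relative to the 75th percentile of the array. RefSeq accessions named 26715 probes, and the probe with the highest mean stood for a gene. A probe counted as well above background where most of its spots were marked so, so Ifng on the OT-I control array, with 1 of 2 spots marked, was not.

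The R package limma, version 3.58.1 (run in R 4.3.3 with the data.table package, 1.17.8), fitted population and genotype over all 9 arrays for 20282 genes well above background on at least 2, two-sided, with Benjamini-Hochberg adjustment and a threshold of 0.05. The residual spread is that of the genotype difference between the 4 populations, since no group had a replicate, and it includes any true difference between them. Pairs were compared where at least 1 array was well above background, by a 2-fold rule. Normexp (offset 50) used the median spot signal, because the files hold no mean signal. Scaling, background correction, probe choice, filters, slide, left-out arrays and the variance prior were varied. The fit was tested on simulated data. The members and lists were chosen with earlier results of these data known. The genes named are the 9, those of other lists called, past 2-fold in at least 3 of 4 pairs or among the 3 with the largest estimate of their list, and the nearest by correlation; Rag1, Cd163l1, Klrb1c, Klra8, Klre1, Ncr1, Klrk1, Tyrobp, Fcer1g, H2-Ab1, Gzmf, Mpo and Elane were named after their values were seen.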

Additional observations from a re-analysis of the deposited data

Results flagged for a closer look

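Gzma was singled out because its genotype difference turned between populations: it was higher in CKO cells in the DP and CD4SP pairs (2.24 and 2.56) and lower in the CD8SP and OT-I pairs (-0.25 and -3.31). The departure between the 2 sets of pairs was -4.17 (limma, SE 1.04, adjusted p = 0.315), so it did not pass the test. Without the OT-I pair it was -2.65, and under quantile normalization the CD8SP difference was 0.12.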

How the results depend on the processing

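The population term already sets each CKO array against its control. No paired analysis was possible by replicate number because each group had 1 array. Of the 9 genes, the number called between CD8SP and DP cells was 3 (702 of all genes), and it became 1 with the 75th percentile taken over probes well above background on all arrays (478), 1 with quantile normalization (584), 0 with slide as a block (0) and 6 with an intensity trend in the variance prior (1356); leaving out a pair gave 3 to 4. Between CD4SP and DP cells the 1 call (630 of all genes) became 2 with normexp (959), 2 with the trend (944) and 7 with slide 1 alone (2000), a fit with 1 residual degree of freedom. Counts of 0 became 1 with the trend (Ccl5) and with slide 1 alone (Gzma) for genotype (81 and 132 of all genes, against 57), 1 with slide 1 alone for CD8SP against CD4SP cells (1028 of all genes, against 79), where the CD8SP arm is 1 array assumed to vary like the others, and 1 with normexp or without the DP pair (0 to 1 over left-out pairs) for OT-I against CD8SP cells. The number past 2-fold in the DP pair was 5, and 3 with normexp or with both arrays well above background; that filter also gave 3 in the OT-I pair and 3 for TCRβ-negative against CD4SP cells. The sign turned for several estimates that had not passed a test. For genotype these were Gzmb (-0.07 to 1.76 over left-out pairs, -0.07 with slide as a block or without the CD8SP pair, which are the same fit, and -0.34 with slide 1 alone), Gzma (-0.33 without the DP pair, -0.44 without the CD4SP pair, and up to 1.51 without the OT-I pair) and Xcl1 (-0.48 without the DP pair, up to 0.95 without the CD8SP pair). For CD8SP minus CD4SP they were Gzmb (-1.36 with the block, -1.50 with slide 1), Ifng (-0.10 with the other percentile, -0.73 with the block, -1.01 with slide 1) and Ccl3 (-0.34 with the block, -0.71 with slide 1). The Ccl4 departure between pairs was -0.45 without the CD4SP pair and 1.95 without the DP pair, and among pair differences Gzma was 0.12 in the CD8SP pair with quantile normalization, and Prf1 and Xcl1 were 0.13 and 0.01 in the CD4SP pair with normexp. The causes were not tested. The other percentile shifted the median gene by -0.22 (DP), 0.14 (CD8SP) and 0.28 (OT-I) and turned no sign of Ccl3, Ccl4 or Ccl5 in any pair. Signal near background limits Gzmb, Ifng, Fasl, Ccl3 and Xcl1.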

Other observations

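Granulocyte and mast cell genes, which belong to none of the comparisons above, differed in part in the DP pair. Of 10 such genes, 5 were well above background in DP control cells, and 4 of those 5 were past 2-fold lower in DP CKO cells. Over all genes compared in the DP pair the share past 2-fold lower was 7.58%. The 2 shares are not alike, because genes kept for their signal on the control array lean towards lower in CKO cells. S100a9 read -2.88 in DP CKO and 2.71 in DP control cells, S100a8 -4.17 (not well above background) in DP CKO and 1.33 in DP control cells, Camp -2.63 in DP CKO and 0.77 in DP control cells, and Mpo -3.12 in DP CKO and -0.97 in DP control cells. Elane, the other of the 5, read 2.09 in DP CKO and 1.93 in DP control cells. In the CD4SP pair the differences were -2.79 for S100a9 and -2.94 for S100a8, but in the CD8SP pair they were 0.1 and 0.09. The TCRβ-negative CKO array read 1.33 for S100a9 and -0.04 for S100a8, so not every CKO array was low. In the OT-I pair neither gene was well above background. The granzyme gene Gzmf was well above background on the CD8SP control array alone, at -4.68 in CD8SP CKO and 0.99 in CD8SP control cells.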
